A study of Homo sapiens with 6 samples.

Results

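Day 4 was compared with day 2 in cardiac organoids made from H9, an established line of human embryonic stem cells. Cardiac organoids are small 3-dimensional cultures that hold cell types of the heart. The series holds 6 RNA sequencing libraries, 1 for each time point from day 0 to day 30 and each from 10 organoids, and the comparison uses the libraries of days 2 and 4, with day 3 between them. Both groups have the same line and the same differentiation, and the labels name no genotype change. Which agents were added to the cultures, and when, is not stated in the labels. A gene entered the comparison with at least 1 FPKM (fragments scaled to gene length and library size, as the authors deposited them) on day 2 or day 4. Its change is the difference in log2(FPKM + 1), day 4 minus day 2. Of 58735 genes in the table, 16564 entered. A difference of at least 1 was called, unless the gene moved back by at least 1 from day 3 to day 4. This left 2721 genes, of which 1630 (9.84% of the genes that entered) were higher at day 4 and 1091 (6.59%) were lower. The words rose and fell are kept for these genes. The shares of 9.84% and 6.59% are the background for every count of listed genes that rose or fell. No p-value is given, since each day has a single library and replicates are lacking. Folds are ratios of FPKM, and the range after each is its 95% counting interval from recovered reads, which leaves out variation between organoids and cultures. The labels call every sample an embryonic stem cell, and all libraries come from the one line.

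In the embryo, the primitive streak is the site where cells leave the epiblast to form mesoderm and endoderm, under WNT, NODAL and FGF signals. Heart precursors leave the streak early, pass through a stage marked by MESP1, and spread into the lateral mesoderm, where BMP signals promote and canonical WNT signals restrain the cardiac programme. The first cardiac transcription factors of the NKX2, GATA, HAND, TBX and ISL families then appear before the contractile proteins.

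Over the 2 days 10 of 13 measured streak factors fell, while 6 of 7 BMP ligands, 6 of 9 BMP-responsive genes and 7 of 16 cardiac transcription factors rose. TBXT (ENSG00000164458, chromosome 6, 166157656 to 166168700, minus strand), the T-box factor that defines the streak, had 158, 10.4 and 6.28 FPKM at days 2, 3 and 4. It was 25.2-fold lower (22.3 to 28.6). Gene positions here and below are in GRCh38. HAND1 (ENSG00000113196, chromosome 5, 154474972 to 154478264, minus strand), which encodes a helix-loop-helix regulator of lateral and cardiac mesoderm, had 7.25, 121 and 193 FPKM and was 26.6-fold higher (23.2 to 30.8). The 3 core pluripotency factors, which keep the stem cell state, were already lower at day 2 than at day 0 and lower again at day 4. POU5F1 had 561 FPKM at day 0 and 352, 100.2 and 34.5 FPKM at days 2, 3 and 4. NANOG had 11.3, 2.12 and 0.434 FPKM, and SOX2 had 19.6, 7.41 and 1.86 FPKM. POU5F1 was 10.2-fold lower (9.68 to 10.7) at day 4 than at day 2, in libraries labelled with the cell type of the starting line. As these are bulk libraries, fewer cells of a type and less RNA per cell cannot be told apart.

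**Figure D1:**
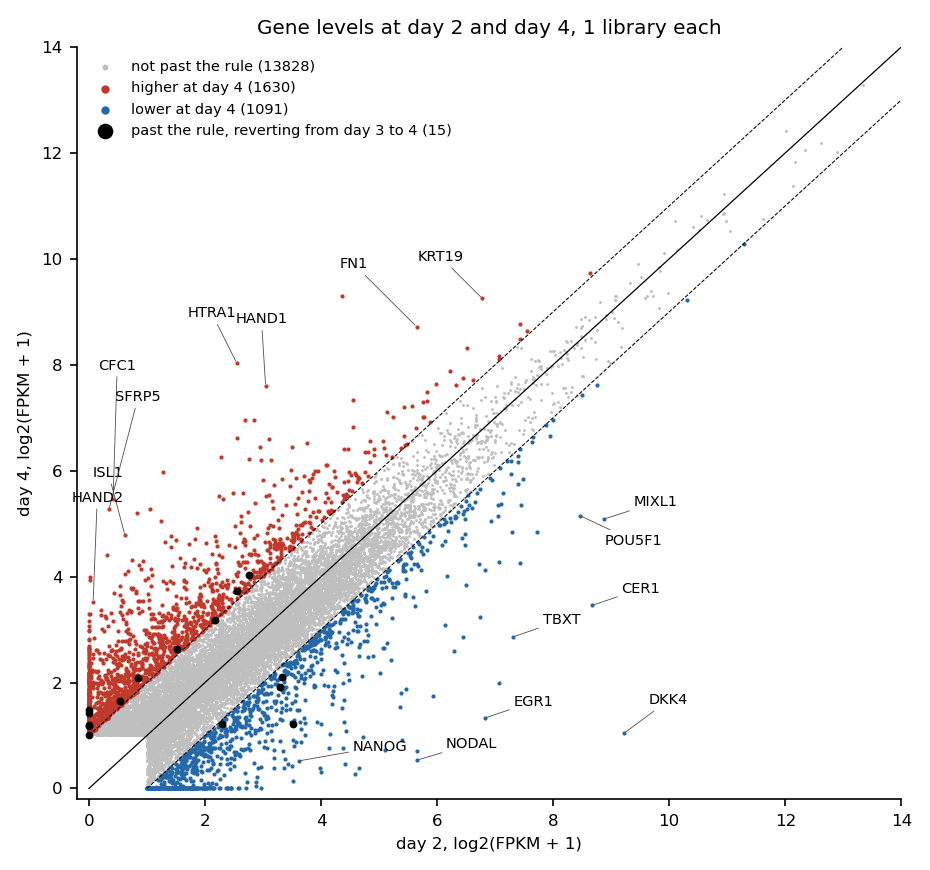
Level of each of 16564 genes at day 2 (x) and day 4 (y), both as log2(FPKM + 1), 1 point per gene; the solid line marks equal levels and the dashed lines a difference of 1. Red points (1630) were higher and blue points (1091) lower at day 4, and black points (15) passed the difference but moved back from day 3 to day 4.

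The day 2 library held 15526924 recovered reads, the day 3 library 13500887 and the day 4 library 14890104. A single read on a gene 1 kilobase long was worth 0.0621 FPKM in the first and 0.0633 FPKM in the last of these. The median difference over all genes that entered was -0.01. Of the 2721 genes, 806 of the higher and 636 of the lower were protein-coding, out of 12245 protein-coding genes that entered. The counting interval of the fold left out 1 for 1330 higher and 877 lower genes. Of the called genes 353 higher and 226 lower genes had 0 reads in 1 of the 2 libraries. Reads of mitochondrial genes made up 5.93% at day 2, 2.92% at day 3 and 5.15% at day 4. The higher protein-coding genes had a median GC content of 54.7% against 49.0% for all that entered. In the decile of protein-coding genes richest in GC 12.8% were higher, and in the poorest decile 2.04%. With the median difference of each GC bin subtracted, 1642 genes were higher and 1050 lower.

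The net change came about in different steps, and a step was counted where the gene moved by at least 1 in the direction of its net change. Of the 1630 higher genes, 577 (35.4%) had their difference of 1 or more from day 2 to 3 only, 425 (26.1%) from day 3 to 4 only and 59 (3.62%) in each step. The other 569 (34.9%) moved by less than 1 in each step. Of the 1091 lower genes, 477 (43.7%) moved from day 2 to 3 only, 150 (13.7%) from day 3 to 4 only, 42 (3.85%) in each step and 422 (38.7%) by less than 1 in each. The 2-day comparison thus holds 991 genes that neither 1-day step would call, of which 309 higher and 307 lower ones are protein-coding. A further 15 genes passed the net difference but moved back and were left out. Only 3 of these were protein-coding, namely MESP2, SEMA6D and HLX. MESP2, a partner of MESP1 in early mesoderm, had 4.84, 52.9 and 12.2 FPKM at days 2, 3 and 4. MESP1 itself had 25.2, 65.2 and 24.7 FPKM, high at day 3 only among these days, and a net difference of -0.03.

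**Figure D2:**
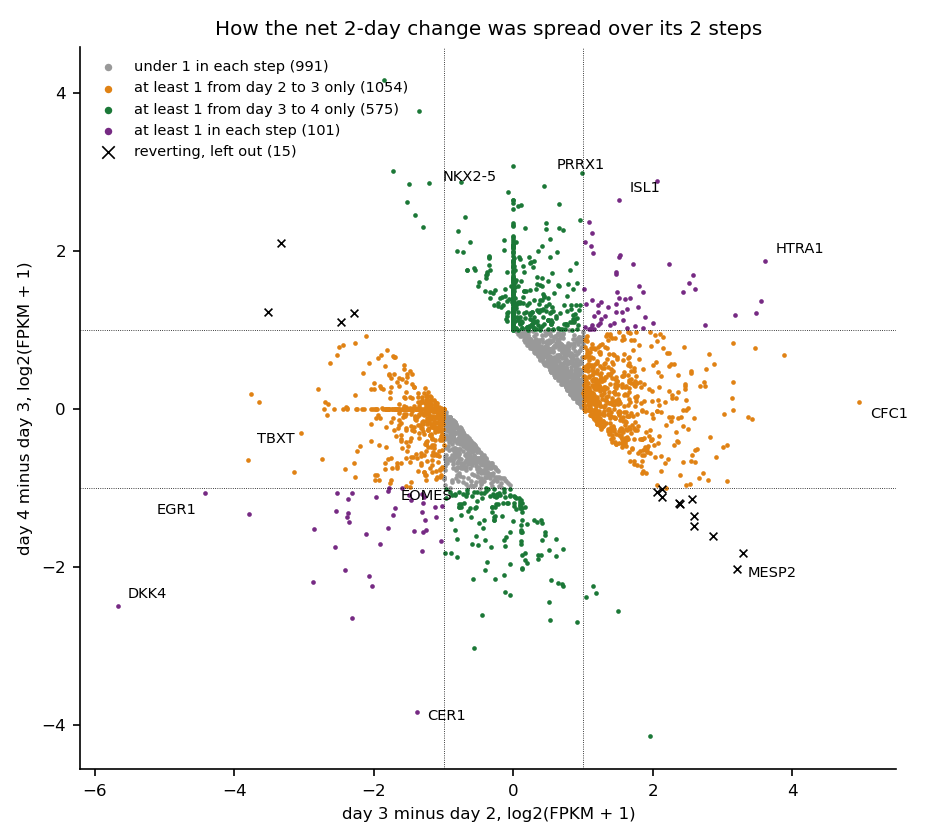
Difference in log2(FPKM + 1) from day 2 to 3 (x) and from day 3 to 4 (y) for the 2721 called genes, coloured by the step in which they moved by at least 1, with the 15 reverting genes as crosses. The grey points (991) moved by less than 1 in each step and passed 1 only in sum.

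Secreted proteins and a co-receptor led the rises of protein-coding genes. HTRA1, a secreted serine protease, had 4.85, 70.4 and 261 FPKM at days 2, 3 and 4 and a difference of 5.48, the greatest of any protein-coding gene. CST1, a cystatin that inhibits cysteine proteases, had 19.5, 84.3 and 631 FPKM. SEMA3G, a secreted semaphorin that guides migrating cells, had 1.43, 26.1 and 61.8 FPKM. In all 3 the level grew in each step and was lower again at day 6, at 79.1, 148 and 11.7 FPKM. CFC1, a co-receptor of NODAL ligands, had 0.335, 40.6 and 43.3 FPKM and was 129-fold higher (67.9 to 284). Its reads can be shared with the near-identical CFC1B, which had 0, 1.59 and 2.01 FPKM. The transcription factors HAND1, GATA3 and ISL1 were among the next. Other membrane and intracellular proteins were also among the 15 top rises. TMEM88, an inhibitor of WNT signalling, had 6.18, 42.9 and 124 FPKM. DOK4, an adaptor of receptor kinases, had 4.84, 26.5 and 96.6 FPKM. AMOT, a scaffold of cell junctions and of the Hippo pathway, had 1.37, 14.9 and 32.2 FPKM. PAX8, a paired-box factor best known from thyroid and kidney, had 0.00839, 0.999 and 14.9 FPKM, from 1 read at day 2, and its ratio of 1772 has an interval from 318 to 70023. PAX8 overlaps its antisense gene PAX8-AS1, and whether the counting used strand is not given in the sources used here. SLC28A2, a nucleoside transporter, had 0.012, 4.46 and 14.2 FPKM, also from 1 read at day 2. Both were back to lower levels at day 6, 0.586 FPKM for PAX8 and 3.52 FPKM for SLC28A2. DLK1, a membrane protein related to NOTCH ligands and made from an imprinted gene, had 1.08, 21.9 and 38 FPKM, and HAPLN1, which links hyaluronan to proteoglycans in the cardiac jelly, had 3.86, 42.1 and 75.9 FPKM.

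Secreted antagonists and an immediate early factor led the falls. DKK4 (ENSG00000104371, chromosome 8, 42374068 to 42377232, minus strand), a secreted antagonist of WNT receptors, had 597, 10.7 and 1.06 FPKM at days 2, 3 and 4 and was 562-fold lower (341 to 1004), a difference of -8.18. CER1, which binds NODAL, BMP and WNT ligands, had 408, 156 and 10.0 FPKM. EGR1, an immediate early factor, had 112, 4.27 and 1.51 FPKM. Each of the 3 was lower in each step. The peptide hormones somatostatin and neurotensin fell with them. SST had 22.9, 3.05 and 0.205 FPKM, with 2 reads at day 4, and NTS had 86.6, 58 and 6.23 FPKM. NANOGP8, a retrogene copy of NANOG whose reads cannot be told apart from those of NANOG with certainty, had 19.9, 4.56 and 0.689 FPKM.

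Of 14 streak factors 13 were measurable and 10 fell, none rose, and the median difference was -1.65, or -1.47 with the member below the FPKM minimum included. Over all genes 6.59% fell. MIXL1, a homeobox factor of mesendoderm, had 472, 91.1 and 33.1 FPKM and was 14.3-fold lower (13.4 to 15.2). GSC, the homeobox factor of the organizer, had 60.0, 13.5 and 2.35 FPKM. EOMES, a T-box factor needed for endoderm and cardiac mesoderm, had 167, 101 and 52.6 FPKM, a fall shared by both steps and under 1 in each. CDX1, a caudal factor of posterior identity, had 20.6, 1.63 and 1.12 FPKM. The members that did not pass were SP5, EVX1 and LHX1, with differences of -0.99, -0.75 and -0.29. LHX1, a LIM homeobox factor, stood at 116, 204 and 94.5 FPKM and so was high at day 3. Genes of the paraxial mesoderm, which forms the somites, went both ways, with 4 of 11 measured lower and 2 higher and a median of -0.45, or -0.13 over the whole list. MSGN1, a basic helix-loop-helix factor of presomitic mesoderm, had 40.6, 2.3 and 2.51 FPKM, and the NOTCH ligand DLL3 had 139.8, 218 and 46.6 FPKM. PCDH8, a protocadherin of forming somites, had 0.458, 2.22 and 11.6 FPKM and rose. Among pluripotency genes 12 of 20 measured fell and none rose, with a median of -1.14. L1TD1, an RNA-binding protein of stem cells, had 71.4, 24.8 and 15.2 FPKM, and DNMT3B, a de novo DNA methyltransferase, had 177, 79.8 and 56.3 FPKM. The RNA-binding protein LIN28A, at 305, 314 and 273 FPKM, and the NODAL co-receptor TDGF1, at 114, 114 and 99.9 FPKM, did not pass.

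Several streak factors are direct targets of canonical WNT signalling, which acts through TCF and LEF proteins. The letters CTTTGA were sought on both strands in the 250 bases before the start. They were found in 5 of 11 streak factors with a RefSeq promoter window, and in 10.1% of 17390 genes with a window. The 5 are CDX2, CDX4, MIXL1, SP5 and SP8, of which CDX4 was below the FPKM minimum and SP5 did not pass. Of protein-coding genes with a window, 8.52% of those that fell and 7.37% of all that entered held the letters. Stretches of 140 bases next to the gene are shown for SP5 and MIXL1, with the matches in capitals, as examples that hold them (RefSeq, GRCh38.p14).
SP5: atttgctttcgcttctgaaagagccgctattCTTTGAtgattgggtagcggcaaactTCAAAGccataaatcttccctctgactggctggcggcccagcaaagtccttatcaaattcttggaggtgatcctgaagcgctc
MIXL1: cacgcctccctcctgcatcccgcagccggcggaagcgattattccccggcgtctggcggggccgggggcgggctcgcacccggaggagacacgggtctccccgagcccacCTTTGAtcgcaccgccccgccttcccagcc
The SP5 stretch is chr2:170715197-170715336 on the plus strand and the MIXL1 stretch is chr1:226223478-226223617 on the plus strand. TBXT, GSC and EOMES had no match in their windows, and SP5 had 3, of which 2 lie in the stretch shown. The pair differed in size of change, as MIXL1 fell by 3.79, and SP5, a zinc finger factor that follows WNT activity, had 340.4, 183 and 171 FPKM and just missed the difference of 1. A match is a description of letters and not a binding site.

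NODAL fell, and its receptors did not pass. NODAL (ENSG00000156574, chromosome 10, 70432315 to 70447951, minus strand), the ligand that patterns the streak, had 49.3, 2.64 and 0.449 FPKM at days 2, 3 and 4 and was 109.9-fold lower (62.7 to 213). GDF3, a ligand of the same receptors, had 14.9, 1.74 and 0.306 FPKM, and LEFTY1, a secreted inhibitor, had 2.96, 0.258 and 0.0669 FPKM. LEFTY2, the related inhibitor, was below the minimum on days 2 and 4, with 0.441, 6.56 and 0.503 FPKM. FOXH1, the forkhead factor that carries the signal to DNA, had 92.4, 83.7 and 40.0 FPKM. The receptors ACVR1B and ACVR2B and the mediator SMAD2 had differences between 0.09 and 0.37. FURIN, a protease that cleaves growth factor precursors, had 13.9, 36.1 and 62.9 FPKM and rose with CFC1 and CFC1B. In all 5 of 15 measured members fell and 3 rose, with a median of 0.09.

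Of 19 WNT ligand genes 8 were measurable, 4 fell and 2 rose, with a median of -0.87, or 0 over the whole list. WNT3A, a canonical ligand of the streak, had 8.13, 2.28 and 0.647 FPKM. WNT8A had 16.4, 66.5 and 2.82 FPKM, highest at day 3 and low at day 4. WNT5A, a ligand of the non-canonical pathway, had 23.6, 30.5 and 7.4 FPKM. WNT11, a non-canonical ligand tied to heart formation, had 0.362, 2.32 and 2.16 FPKM and rose. WNT3 had 16, 15.1 and 7.4 FPKM, and its difference of -1.02 did not pass when levels were scaled by recovered reads or as TPM.

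The WNT antagonists went both ways. DKK4, CER1, DKK1 and SFRP2 fell, and SFRP5, SHISA3, SFRP1 and IGFBP4 rose, 4 and 4 of 13 measured. DKK1 had 211, 52.6 and 27.7 FPKM at days 2, 3 and 4, and SFRP2 had 113, 32.2 and 16.4 FPKM. SFRP5 (ENSG00000120057, chromosome 10, 97766751 to 97771952, minus strand), a secreted frizzled-related protein of the early heart field, had 0.271, 13.9 and 37.6 FPKM and was 139-fold higher (70.2 to 322). SHISA3, which holds back frizzled receptors, had 3.75, 31.3 and 44.8 FPKM, and IGFBP4, a binding protein of insulin-like growth factors that also inhibits WNT signals, had 171, 241 and 434 FPKM. The summed level of the listed antagonists was 1551 FPKM at day 2, 662 FPKM at day 3 and 697 FPKM at day 4. WNT feedback genes moved in both directions, with 4 of 13 lower, 2 higher and a median of -0.48, or -0.35 over the whole list. AXIN2, a negative regulator induced by WNT, had 19.7, 8.31 and 8.2 FPKM, and TCF7, a DNA-binding partner of beta-catenin, had 9.32, 2.96 and 2.67 FPKM. LEF1, the related partner, had 10.8, 9.12 and 22.1 FPKM with a difference of 0.97. BAMBI, a decoy receptor that both WNT and BMP induce, had 37, 48.7 and 128 FPKM.

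FGF ligands fell more often than they rose, and no receptor or feedback gene of the pathway passed as lower. FGF4 had 33.4, 3.73 and 0.646 FPKM, FGF19 had 11.6, 1.65 and 0.828 FPKM and FGF17 had 153, 84.9 and 60.0 FPKM, all ligands of the streak or epiblast. FGF10, a ligand of the second heart field, rose from 0.743 to 2.82 FPKM. In all 5 of 10 measured ligands fell and 1 rose. FGF8 did not pass, with 7.57, 3.83 and 6.95 FPKM. Of 17 receptor and feedback genes 4 rose and none fell, with a median of 0.60. In sign 12 lay above 0 and 5 below, down to -0.93. Among those below 0, ETV4 had 39.7, 17.8 and 20.4 FPKM and did not pass. FGFR3 had 12.9, 45 and 55.7 FPKM, FGFR4 had 11.9, 25.1 and 31.1 FPKM and DUSP6, a phosphatase that ends ERK signals, had 21, 21.1 and 54.6 FPKM.

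Most BMP ligands and BMP-responsive genes rose. BMP4 (ENSG00000125378, chromosome 14, 53949736 to 53958761, minus strand), the main BMP of lateral mesoderm, had 10.3, 90.2 and 86 FPKM at days 2, 3 and 4 and was 8.39-fold higher (7.65 to 9.21). BMP5 had 0.503, 3.99 and 8.13 FPKM, BMP2 had 16.4, 64.9 and 44 FPKM and BMP10, a heart-enriched ligand, had 0, 1.28 and 1.4 FPKM. In all 6 of 7 measured ligands rose against 9.84% of all genes, with a median of 1.50, or 1.26 over the whole list, and the lower one was BMP7 at 9.26, 7.85 and 4.11 FPKM. BMP4, BMP5, BMP2 and BMP10 moved by at least 1 from day 2 to 3, and BMP6 and GDF6 from day 3 to 4. For the responsive genes the median was 0.14 from day 2 to 3 and 0.94 from day 3 to 4. SMAD6, an inhibitory SMAD, had 4.62, 17 and 46.7 FPKM, ID4 had 14.5, 24.5 and 62.5 FPKM, and MSX2, a homeobox factor, had 10.8, 16.4 and 40.2 FPKM. Of 9 measured responsive genes 6 rose, 0 fell and all lay above 0, with a median of 1.11. ID3 had 154, 107 and 203 FPKM and did not pass. Of the secreted BMP antagonists, BMPER rose with 1.67, 22.8 and 22.6 FPKM, and FST, which binds activin, fell with 42.7, 22.9 and 11.8 FPKM. NOG had 2.59, 7.33 and 2.31 FPKM, with its high value at day 3.

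**Figure D3:**
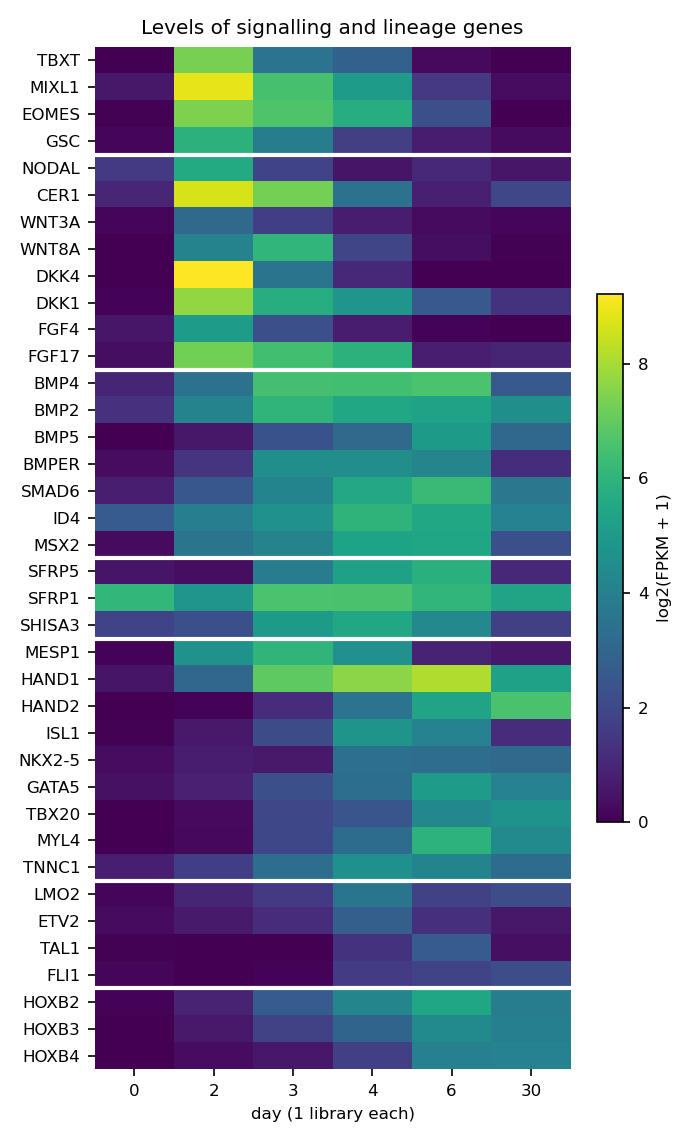
Level as log2(FPKM + 1), by colour, of streak, NODAL, WNT, FGF, BMP, heart, endothelial and HOXB genes (rows) in each of the 6 libraries (columns, 1 per day). Streak and NODAL genes are brightest at day 2, and BMP4, SFRP5, HAND1 and ISL1 are bright from day 3 or 4.

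Several lateral mesoderm and cardiac factors rose, most of them from low levels. Of 15 lateral and cardiac mesoderm genes, all measured, 6 rose and 1 fell, with a median of 0.85. PRRX1, a homeobox factor of lateral plate, had 0.0151, 0.38 and 8.79 FPKM. ETV2, the ETS factor that starts endothelial and blood development, had 0.606, 1.26 and 5.97 FPKM, and LMO2, a bridging protein of the same programme, had 0.919, 1.95 and 10.6 FPKM. RSPO3, a ligand that raises WNT receptor levels, had 40.9, 6.82 and 0.896 FPKM and fell. The apelin receptor APLNR and the growth factor receptor PDGFRA, surface markers of cardiac mesoderm, had differences of -0.18 and 0.25. APLNR stood at 358, 656 and 316 FPKM, so its high value was at day 3.

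Of 22 cardiac transcription factors 16 were measurable, and 7 rose and 1 fell, with a median of 0.75, or 0.28 over the whole list. These counts leave out ISL1, which is in the second heart field and amnion lists. ISL1 (ENSG00000016082, chromosome 5, 51383391 to 51394738, plus strand), a LIM homeobox factor of second heart field progenitors, had 0.539, 3.41 and 26.5 FPKM at days 2, 3 and 4 and was 49.2-fold higher (33.2 to 76.3). NKX2-5 (ENSG00000183072, chromosome 5, 173232109 to 173235357, minus strand) encodes a homeodomain protein of cardiac progenitors. It had 0.623, 0.533 and 9.31 FPKM and was 14.9-fold higher (9.6 to 24.5). HAND2, a partner of HAND1, had 0.0517, 1.24 and 10.5 FPKM, from 3 reads at day 2. GATA5 had 0.814, 3.76 and 8.95 FPKM, TBX20 had 0.166, 2.86 and 4.39 FPKM and TBX2 had 0, 0.335 and 4.57 FPKM, with 0 reads at day 2. NKX2-5 and TBX2 moved by at least 1 only from day 3 to 4, and TBX20 only from day 2 to 3. GATA4 and GATA6, zinc finger factors of heart and endoderm, were already expressed at day 2 and did not pass. GATA4 had 16.2, 26 and 29.3 FPKM and GATA6 had 65.4, 63.9 and 42.8 FPKM. The cardiac factors TBX5, MEF2C and MYOCD stayed below the minimum on both days. TBX5 had 0.0712, 0.176 and 0.247, and MEF2C had 0.0264, 0.0356 and 0.0269 FPKM. SRF, a general activator of muscle and immediate early genes, had 35, 18.6 and 14.3 FPKM and fell. Of 15 genes of the second heart field, the later-added heart precursors, 8 were below the minimum, and ISL1, FGF10 and WNT11 rose. Contractile genes were mostly low. Of 26 sarcomere genes 13 were below the minimum on both days, 4 of the others rose and 1 fell, with a median of 0.69, or 0.11 over the whole list. TNNC1, slow and cardiac troponin C, had 2.29, 9.19 and 23.5 FPKM. MYL4, the atrial essential light chain, had 0.152, 2.98 and 8.7 FPKM, and MYL7, the atrial regulatory light chain, had 1.41, 2.44 and 5.82 FPKM. The cardiac troponin T gene TNNT2 had 0.0428, 0.182 and 0.497 FPKM at days 2, 3 and 4. MYH6, a cardiac myosin heavy chain, had 0.0478, 0.14 and 1.32 FPKM and rose. Cardiac factors such as ISL1, NKX2-5 and HAND2 were thus measured at day 4, while TBX5 and MEF2C were below 1 FPKM. The contractile genes TNNC1, MYL4, MYL7 and MYH6 were measured as well. The contractile genes TNNT2 and MYH7 were below 1 FPKM.

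Of 38 HOX genes 29 were below the minimum on both days. Of the 9 others 7 rose, beside 9.84% of all genes, with a median of 1.39, or 0.05 over the whole list. All 7 belong to the B cluster. HOXB2 had 0.824, 5.37 and 17.7 FPKM, HOXB3 had 0.566, 2.48 and 6.82 FPKM and HOXB4 had 0.231, 0.52 and 2.39 FPKM at days 2, 3 and 4. HOXB5, HOXB6, HOXB8 and HOXB9 reached between 1.18 and 2.06 FPKM at day 4. HOXB1 had 1.38, 0.648 and 1.89 FPKM and did not pass, and stood at 29.6 FPKM at day 6.

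Genes of other lineages rose beside the cardiac ones, and their part in the results above was not tested. Of 21 endothelial and blood genes 12 were measurable, 10 rose and none fell, beside 9.84% of all genes that rose. Of the 12, 8 moved up by at least 1 from day 3 to 4. TAL1, a master factor of blood and endothelium, had 0.0218, 0.0122 and 1.58 FPKM, FLI1 had 0.0152, 0.0683 and 2.14 FPKM and PLVAP, a protein of endothelial pores, had 0.0539, 0.0605 and 2.72 FPKM. NFATC1, a factor of endocardium and valves, had 5.33, 25.3 and 46.7 FPKM. The adhesion proteins PECAM1 and CDH5, which define mature endothelium, had 0.048, 0.198 and 0.326 and 0.0204, 0.206 and 0.874 FPKM, and EMCN, HBZ and HBE1 had 0 reads at day 4. The summed level of the list was 28.4, 57.3 and 105 FPKM at days 2, 3 and 4. A member below the minimum on day 2, such as TAL1, FLI1 or PLVAP, enters only through its rise. The median of 1.36 was 0.88 over the whole list.

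Of 18 endoderm and liver genes 14 were measurable, 9 rose and 1 fell, beside 9.84% and 6.59% of all genes. The median was 1.23, or 0.997 over the whole list. The list's summed level was 237 FPKM at day 2, 448 at day 3 and 449 at day 4. SOX17 (ENSG00000164736, chromosome 8, 54457935 to 54460888, plus strand), a factor of definitive endoderm that is also active in endothelium, had 79.4, 191 and 196 FPKM. FOXA2, the pioneer factor of endoderm, had 40.7, 66.2 and 85.4 FPKM. HNF4A, a nuclear receptor of liver and gut, had 0.289, 2.19 and 2.45 FPKM. HHEX fell with 16.8, 11.6 and 6.52 FPKM. The liver protein genes AFP, TTR and FGB had 0 reads at day 4. Of 17 amnion and trophoblast genes 6 were measurable, and ISL1, GATA3, BAMBI, GATA2 and WNT6 rose, most of which other lists hold too. The median was 1.53 over the measured members and 0.02 over the whole list. The summed level of that list was 46.8, 74.5 and 200.3 FPKM. GATA3, a factor of trophoblast and amnion that is also found in mesoderm, had 0.777, 15.2 and 36 FPKM. TFAP2C, a factor of trophoblast and amnion, fell with 4.38, 2.81 and 0.40 FPKM, and KRT7 and CGA were at 0 reads at day 4. Of 16 neural genes 11 were below the minimum, and ZIC2 fell with 121, 78.6 and 32.2 FPKM while STMN2, a tubulin-binding protein of neurons, rose with 4.71, 27.8 and 22.5 FPKM. Of 12 neural crest genes 8 were measurable. SNAI2 rose with 3.84, 11 and 9.38 FPKM, FOXD3 fell with 2.74, 3.04 and 0.698 FPKM, and SOX10 and SOX9 did not pass. Of 12 smooth muscle and pericyte genes 8 were measurable, and RGS5, with 0.683, 4.54 and 18.8 FPKM, and PDGFRB, with 2.64, 15.2 and 29.3 FPKM, rose and TAGLN fell. Of 12 epicardial genes 7 were below the minimum, among them WT1 and TBX18. Of the 5 measured, LRRN4, KRT19 and TCF21 rose and ALDH1A2 fell, with a median of 1.39, or 0.17 over the whole list. LRRN4 had 1.48, 7.98 and 24.1 FPKM.

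**Figure D4:**
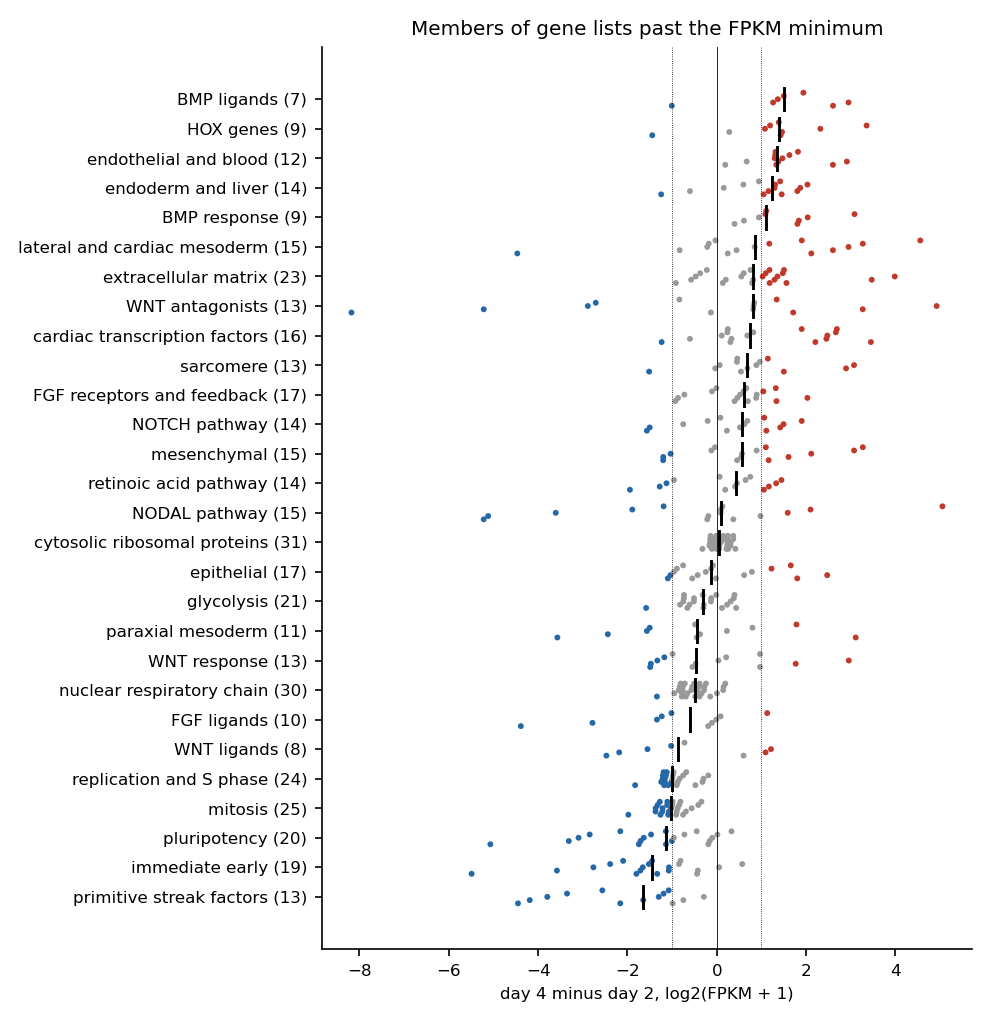
Difference in log2(FPKM + 1), day 4 minus day 2, of every member past the FPKM minimum (number in parentheses) in 28 of the gene lists, 1 point per gene, red at 1 or more and blue at -1 or less, with the median as a bar. Streak, immediate early, pluripotency, mitosis and replication lists lie lowest, and BMP ligands highest of the 28 lists plotted.

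Of 23 measured matrix genes 11 rose and none fell, beside 9.84% and 6.59% of all genes. The median was 0.82, or 0.64 over the whole list. FN1 (ENSG00000115414, chromosome 2, 215360440 to 215436172, minus strand), the fibronectin of the early matrix, had 49.1, 331 and 421 FPKM and was 8.58-fold higher (8.43 to 8.73). COL1A1 had 5.75, 18.5 and 73.8 FPKM, and COL4A1, a basement membrane collagen, had 12.2, 40.6 and 37.9 FPKM. CDH2, the mesenchymal cadherin, had 96.6, 128 and 94.1 FPKM and did not pass. CDH1, the epithelial cadherin, had 53.9, 30.4 and 25.7 FPKM with a difference of -1.04. SNAI1, a repressor of CDH1, was at its highest at day 2 with 77.8, 42.4 and 33.4 FPKM, while its relative SNAI2 had 3.84, 11 and 9.38 FPKM. Keratins of simple epithelia went the other way from CDH1. KRT19 had 109, 778 and 609 FPKM, KRT8 had 90.3, 185 and 317 FPKM and KRT18 had 73.4, 115 and 234 FPKM. Of 29 measured genes of migration and guidance 8 rose and 4 fell. NRP2 had 2.57, 16.6 and 25.1 FPKM, NRP1 had 3.05, 6.44 and 16.1 FPKM and CXCR4, the receptor of the chemokine CXCL12, had 16, 69.7 and 68.4 FPKM. CXCL12 itself fell with 8.34, 2.6 and 2.12 FPKM.

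NOTCH and retinoic acid genes went both ways. The ligands DLL1 and DLL3 fell, while JAG1 had 6.57, 33.3 and 20.4 FPKM and the target HEY1 had 1.21, 2.14 and 7.26 FPKM. In all 5 of 14 measured NOTCH genes rose and 2 fell, beside 9.84% and 6.59% of all genes. Of the genes that make retinoic acid, ALDH1A2 had 1.82, 0.243 and 0.294 FPKM and fell, and ALDH1A3 had 1.34, 3.19 and 5.4 FPKM and rose. CYP26A1, which breaks it down, stood at 43.7, 107 and 68.9 FPKM with a difference of 0.65. RARB, a receptor that its own ligand induces, had 0.101, 0.509 and 1.47 FPKM.

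Genes of DNA replication and of mitosis were lower at day 4. All 24 measured replication genes and all 25 mitosis genes had negative differences, with medians of -1.01 and -1.02 beside -0.01 over all genes. Of them 12 and 13 passed, beside 6.59% of all genes that fell, and none rose. For replication genes the median was -0.82 from day 2 to 3 and -0.15 from day 3 to 4. For mitosis genes it was -0.29 and then -0.73. From day 2 to 3 none of the mitosis genes moved by 1, from day 3 to 4 only BUB1, CENPF and HMMR did, and 10 of the 13 that passed did so only over both days. PCNA (ENSG00000132646, chromosome 20, 5114953 to 5126626, minus strand), the sliding clamp of DNA polymerases, had 103, 44.1 and 46.6 FPKM and was 2.2-fold lower (2.05 to 2.36). MCM6, a subunit of the replicative helicase, had 41.6, 22.5 and 17.4 FPKM, and RRM2, of the enzyme that makes deoxynucleotides, had 14.9, 4.78 and 3.48 FPKM. CCNB1 (ENSG00000134057, chromosome 5, 69167010 to 69178245, plus strand), the cyclin of mitotic entry, had 72.1, 46.2 and 28.2 FPKM and was 2.55-fold lower (2.39 to 2.74). CDC20, an activator of the anaphase-promoting complex, had 86.5, 57.1 and 35.2 FPKM. MKI67, the common marker of cycling cells, had 27.1, 23.5 and 12.4 FPKM, and BUB1, a spindle checkpoint kinase, had 47.2, 25.2 and 11.2 FPKM. TYMS and RFC4 were closest to 0 among replication genes, with -0.30 and -0.19. At day 6 the levels of PCNA, CCNB1, CDC20 and MKI67 were 60.3, 38.5, 56.1 and 27.2 FPKM, each above its level at day 4. The level of MYC, a growth-promoting factor, was 12.7, 5.13 and 3.69 FPKM, that of CCND1, a cyclin of the first gap phase, was 50.1, 14.1 and 17.4 FPKM, and both fell. CDKN1C, an inhibitor of cyclin-dependent kinases, had 9.2, 15.3 and 23.2 FPKM and rose.

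**Figure D5:**
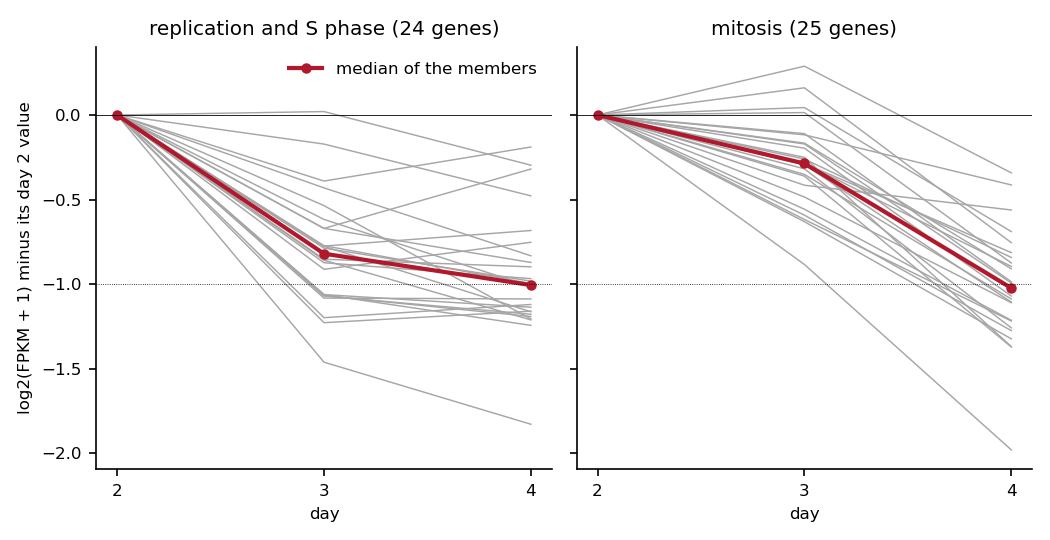
Change of each replication gene (left, 24 genes) and mitosis gene (right, 25 genes) from its day 2 value at days 3 and 4, in log2(FPKM + 1), 1 grey line per gene and the median in red. The replication median falls mostly by day 3 and the mitosis median mostly by day 4, and both end near -1.

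Promoters of replication and mitosis genes are shown because these genes moved together. The cell cycle homology element (letters TTTGAA or TTTAAA) and the CCAAT box (CCAAT) are bound in mitotic promoters, and the E2F element (TTTCCCGC, TTTGGCGC, TTTCGCGC or TTTGCCGC) in replication promoters. Each was sought on both strands in the 250 bases before the start. Of 25 mitosis genes 20 had a RefSeq window. The homology element was in 80.0% of these, in 18.9% of 17390 genes and in 13.8% of the protein-coding genes that entered. The CCAAT box was in 85.0% against 34.2%, and an E2F element in 5.00% against 3.45%. Of 25 replication genes 21 had a window. An E2F element was in 47.6% of these and the homology element in 14.3%. The CCAAT box was in 61.9% of them, so it was not particular to the mitosis genes. Among all protein-coding genes that fell the shares were 18.1% for the homology element, 39.1% for the CCAAT box and 3.95% for an E2F element. Stretches of 140 bases next to the gene are given for 3 mitosis and 2 replication genes that fell and hold matches, with matches to any of the 3 elements in capitals (RefSeq, GRCh38.p14).
CENPF: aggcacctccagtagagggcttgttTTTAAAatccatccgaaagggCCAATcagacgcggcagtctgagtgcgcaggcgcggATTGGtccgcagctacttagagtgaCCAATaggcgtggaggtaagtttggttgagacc
MKI67: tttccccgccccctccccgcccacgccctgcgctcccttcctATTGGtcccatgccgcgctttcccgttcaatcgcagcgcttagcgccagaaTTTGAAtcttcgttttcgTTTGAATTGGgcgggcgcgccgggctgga
CDC20: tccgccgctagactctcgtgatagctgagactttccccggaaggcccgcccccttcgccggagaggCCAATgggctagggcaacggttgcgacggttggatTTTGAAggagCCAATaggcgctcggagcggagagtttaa
MCM6: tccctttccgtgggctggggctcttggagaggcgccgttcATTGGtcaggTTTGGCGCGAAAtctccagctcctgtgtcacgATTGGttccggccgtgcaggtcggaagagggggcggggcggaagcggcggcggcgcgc
PCNA: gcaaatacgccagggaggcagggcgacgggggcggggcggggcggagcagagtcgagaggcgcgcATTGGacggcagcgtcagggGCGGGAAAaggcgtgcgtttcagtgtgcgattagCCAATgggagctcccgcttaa
CENPF is chr1:214603055-214603194 on the plus strand, MKI67 is chr10:128126424-128126563 on the minus strand and CDC20 is chr1:43358815-43358954 on the plus strand. MCM6 is chr2:135876444-135876583 on the minus strand and PCNA is chr20:5126627-5126766 on the minus strand. In MKI67 a homology element and a CCAAT box overlap, and in MCM6 E2F matches of both strands overlap. These are matches of letters only.

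Immediate early genes, which cells switch on within minutes of a signal or of handling, were lower at day 4. Of 19 measured 13 fell, beside 6.59% of all genes, and none rose. The median was -1.45, and 10 moved down by at least 1 from day 2 to 3. FOS had 42.9, 2.24 and 2.68 FPKM, FOSB had 5.42, 0.213 and 0.228 FPKM and EGR2 had 6.36, 0.151 and 0.0858 FPKM. JUNB had 15.4, 4.37 and 3.72 FPKM, while JUN, with 58.3, 40.9 and 32 FPKM, and JUND, with 112, 165 and 167 FPKM, did not pass.

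Of 21 glycolysis genes only HK1 passed, with 51.6, 35.5 and 16.6 FPKM, beside 6.59% of all genes that fell. The median was 0.51 from day 2 to 3 and -0.79 from day 3 to 4. For hypoxia-response genes these medians were 1.04 and -0.91, and VEGFA, the vascular growth factor, rose with 13.6, 62.2 and 60.6 FPKM. All 13 genes of the mitochondrial genome were measured and only MT-CYB passed, at 2504, 894 and 1244 FPKM and a difference of -1.01 that did not pass when scaled by recovered reads or as TPM. Of 30 nuclear genes of the respiratory chain 26 lay below 0, with a median of -0.49, but only CYCS, cytochrome c, passed, with 36.4, 12.3 and 13.8 FPKM. Of 13 measured genes of fatty acid and ketone use 3 fell (FABP5, CPT1A and OXCT1) and PPARA rose. FABP5, a fatty acid carrier, had 170.5, 31.2 and 18 FPKM. None of 31 ribosomal protein genes passed, and their median was 0.05. Of 21 Polycomb and DNA methylation genes only DNMT3B passed. Of the imprinted genes 5 of 11 rose, beside 9.84% of all genes, and none fell. Among those that rose were IGF2 with 0.0178, 0.41 and 2.48 FPKM and PLAGL1, a zinc finger factor, with 3.53, 11.1 and 14.9 FPKM.

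Protein-coding genes that passed only over both steps were led by NCOA4, a receptor of ferritin in iron recycling, with 34.3, 69.3 and 137 FPKM at days 2, 3 and 4. GPC3, a cell surface glypican, had 11.8, 24.6 and 47.5 FPKM, and CD99, an adhesion protein, had 12.8, 26 and 48.1 FPKM. SVEP1, a large matrix protein, had 0.109, 1.03 and 2.89 FPKM and was 26.4-fold higher (17.7 to 41.1). Among falls of this kind PRDM14, a regulator of pluripotency, had 3.28, 1.17 and 0.311 FPKM. In each of these the level changed the same way in each step.

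The deposited table gives families of transcription factors. Of 66 homeobox genes that entered 19 rose and 10 fell, beside 6.58% and 5.19% of protein-coding genes. Of 19 ETS factors 5 rose and none fell, and of 38 bZIP factors none rose and 6 fell. Of 485 zinc finger factors of the C2H2 kind 16 rose and 15 fell. Of 263 microRNA genes that entered 38.8% were higher and 23.6% lower, with a median of 3 reads in the better library, so few reads stand behind these calls. Among longer noncoding RNAs ESRG, a transcript of the stem cell state, had 133, 17.3 and 3.0 FPKM, and LNCPRESS2 had 24.2, 5.21 and 0.308 FPKM. GATA3-AS1, which lies opposite GATA3, had 0.236, 6.05 and 20.2 FPKM, and its reads may not have been separated from those of GATA3. PCAT14 had 5.43, 37.4 and 123 FPKM.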

How the data were processed

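The authors deposited gene levels in FPKM, 1 column per time point, with 1 library of 10 organoids each. Per the submitters' processing notes, CASAVA, HISAT2 and featureCounts 1.5.0-p3 were used. Their settings, the genome build and the strand of counting were not stated there or in the labels. All 58735 gene positions equal those of GENCODE 29 (GRCh38). Whole reads were recovered from FPKM and gene length within 0.001 reads. These give the 95% exact conditional binomial intervals of the folds. They cover counting error only. No fold or interval was given where either library had 0 reads. A floor of 3 reads served only for lower bounds of such folds, which the text does not use. Differences used log2(FPKM + 1), at least 1 FPKM on either day and a threshold of 1. Scripts (Python 3.11.15, numpy 2.4.6, pandas 2.3.3, scipy 1.17.1, matplotlib 3.10.9) were tested on simulated data.

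The members, the 46 gene lists and the rules were chosen with earlier results of these data known. Lists are described by counts and medians, without a test. The text names, of protein-coding genes, the 15 top rises and 15 top falls, up to 6 members of each list with the largest difference, called members against the sign of the list's median, the uncalled member with the highest level, 10 rises and 10 falls that passed in neither step, 5 noncoding genes each way, and POU5F1, NANOG and SOX2. Other genes named in the text, such as MESP1, SOX17, PCNA, MKI67, GATA4 and the reverting genes, were chosen after their values were seen. Some genes picked by these rules are left out of the text. Promoter windows are from RefSeq (GRCh38.p14), matched by gene symbol. Alternatives covered the pseudocount, the minimum, the scaling, the threshold and the handling of reversals.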

Additional observations from a re-analysis of the deposited data

How the results depend on the processing

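The counts of genes higher at day 4 than at day 2 (1630) and genes lower at day 4 than at day 2 (1091) moved by more than 1.5 times under 5 settings. They were 2638 and 1722 with a pseudocount of 0.1, 774 and 569 with a minimum of 5 FPKM, and 4295 and 2480 on the TPM scale. They were 262 and 141 with a threshold of 2, and 806 and 636 among protein-coding genes only. For called genes by step, those that passed in neither step numbered 991. They were 489 with a minimum of 5 FPKM, 1505 on the TPM scale, 219 with a threshold of 2 and 616 among protein-coding genes. Scaling by recovered reads (1764 and 1070), by the median of ratios (1576 and 1138), calls whose interval excludes 1 (1330 and 877) and leaving out any opposite step (1410 and 985) stayed within 1.5 times. Subtracting the median of 20 GC bins (1642 and 1050) or 20 length bins (1404 and 1194) was chosen after seeing the data. No named difference reversed. BMP7, CDH1, FGF2, MT-CYB, SOX3, TAGLN, TWIST2, WNT3 and WNT6 did not pass under at least 1 scaling or bin setting. The cause was not tested. No paired analysis was possible because each day has 1 library, and no library could be left out. Genes with few reads limit the precision.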
